A study of Mus musculus with 16 samples.

Results

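The genes described here are 36 genes of glycolysis, gluconeogenesis, fructolysis and lactate handling, found by their gene names among the 54532 genes of the count table. The name Aldoa stands on 2 rows of that table, so the 36 names gave 37 rows. RNA was sequenced from 16 cultures of differentiated mouse enteroids, cultures of intestinal epithelium started from crypts of the jejunum, in 4 groups of 4 cultures. Control enteroids have the genotype Control and no treatment in the labels, and the study's methods give Vil1-CreERT2;Myo5b flox/flox mice as their source and ethanol in place of the drug, while a figure legend of the study calls the controls healthy littermates. MYO5BΔIEC enteroids have the genotype Vil-CreERT2;Myo5b-flox/flox, and MYO5B(G519R) enteroids have the genotype Vil-CreERT2;Myo5b-flox/G519R, with a missense mutation on the allele that is not floxed. Both were given 1 µM 4-OH-tamoxifen for 24 h to switch on Cre, which is driven by the villin promoter and so acts in epithelial cells. The last group is MYO5BΔIEC given 100 nM Compound-1, an agonist of the lysophosphatidic acid receptor LPAR5, for 2 days in the differentiation medium, and the MYO5BΔIEC cultures without it received vehicle. As the labels name tamoxifen for the mutant groups alone, the effect of the drug and that of MYO5B loss cannot be told apart in any comparison with control. MYO5B is a motor protein that carries recycling endosomes to the apical membrane of enterocytes, and its loss causes microvillus inclusion disease. The comparisons ask how sugar metabolism genes differ after its loss and with the agonist. Each group is 4 cultures from 4 mice by the study's account.

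Glycolysis splits glucose into pyruvate in the cytosol. Hexokinase traps glucose in the cell, phosphofructokinase sets the pace, and lactate dehydrogenase turns pyruvate into lactate where it does not enter mitochondria. Gluconeogenesis runs the path backwards by its own enzymes, fructose-1,6-bisphosphatase and glucose-6-phosphatase, and the small intestine is among the few tissues that hold them. Enterocytes also take apart dietary fructose, which ketohexokinase phosphorylates.

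The promoters of genes that moved in opposite directions are shown first, and the set was chosen after the values and the motif counts were seen. The hexokinase genes Hk1 and Hk2 were higher in both MYO5B models than in control, and the gluconeogenic genes Fbp1 and G6pc were lower in both. Each window runs 5′ to 3′ from 250 bases before to 50 bases after a transcription start of RefSeq (GRCm38.p6). Capitals mark ACGTG, a form of the core of the hypoxia response element, read on either strand. A match on the other strand reads CACGT, and other forms of the core were not searched.
Hk1, chr10:62340372-62340671, minus strand: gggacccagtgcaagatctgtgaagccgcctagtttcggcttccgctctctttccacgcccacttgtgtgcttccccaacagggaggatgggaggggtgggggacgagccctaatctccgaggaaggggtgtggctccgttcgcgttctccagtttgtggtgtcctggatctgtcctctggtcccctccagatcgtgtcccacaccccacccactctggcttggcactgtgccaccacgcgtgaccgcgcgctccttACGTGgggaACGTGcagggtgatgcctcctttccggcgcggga
Hk2, chr6:82774405-82774704, minus strand: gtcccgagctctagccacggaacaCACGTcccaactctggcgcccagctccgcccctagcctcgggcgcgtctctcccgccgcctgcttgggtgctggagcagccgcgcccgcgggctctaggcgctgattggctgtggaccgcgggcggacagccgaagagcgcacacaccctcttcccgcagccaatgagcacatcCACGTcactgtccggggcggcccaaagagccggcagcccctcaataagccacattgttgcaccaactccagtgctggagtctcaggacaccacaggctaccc
Fbp1, chr13:62888233-62888532, minus strand: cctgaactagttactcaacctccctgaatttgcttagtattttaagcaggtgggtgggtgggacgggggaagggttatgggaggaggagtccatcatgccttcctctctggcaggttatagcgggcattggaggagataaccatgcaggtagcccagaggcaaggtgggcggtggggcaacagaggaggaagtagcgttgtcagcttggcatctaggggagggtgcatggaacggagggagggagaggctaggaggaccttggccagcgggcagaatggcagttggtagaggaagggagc
G6pc, chr11:101367466-101367765, plus strand: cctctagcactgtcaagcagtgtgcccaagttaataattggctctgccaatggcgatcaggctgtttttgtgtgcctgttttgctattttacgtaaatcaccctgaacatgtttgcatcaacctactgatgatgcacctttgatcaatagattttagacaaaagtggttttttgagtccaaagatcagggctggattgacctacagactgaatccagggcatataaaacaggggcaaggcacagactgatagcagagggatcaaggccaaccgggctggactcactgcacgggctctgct
Hk1 and Hk2 hold 2 matches each in these windows, and Fbp1 and G6pc hold 0. Hk1 has another window, which also holds 0. RefSeq listed promoters for all 36 names, 53 windows in all, of which 23 (43.4%) hold ACGTG on either strand. The share over all 32851 windows of the same length is 19.6%. The longer CACGTG, which contains ACGTG, is in 7.15% of all windows. Of the members that were higher in both models, all 3 have at least 1 window with the motif, in 4 of 7 windows. Of the 3 that were lower in both, Eno3, Fbp1 and G6pc, none has it in its single window. Members with negative fold changes in both models hold it too, with 2 matches in Fbp2, Khk and Pgk1 and 5 in 1 window of Ldha. CACGTG reads the same on both strands, so each such site counts as 2 overlapping matches of ACGTG. The 2 matches of Fbp2 and of Khk are thus 1 CACGTG site each, and Ldha holds 2 such sites among its 5 matches. The windows of Pgk1, Hk1 and Hk2 hold no CACGTG. A match is a description of the letters, and binding was not measured.

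The libraries held 27804968 to 40101729 counts, so that 0 counts allow a level of up to 0.0736 to 0.111 counts per 1000000 counts (CPM). The members took 1.29% to 2.30% of all counts of a library. Levels are CPM normalised by trimmed mean of M values (TMM), unless fragments per kilobase of gene and 1000000 fragments (FPKM) are named. Control culture 1 stood apart from the other control cultures, with Pearson correlations of log levels over genes of 0.968 to 0.973 against 0.993 to 0.995 among the others. Comparisons with control are therefore given with and without it. Myo5b itself, counted over the whole gene, measured 160 to 229.6 CPM in control. It was 101 to 169 CPM in MYO5BΔIEC, which overlaps with control, 136 to 173 CPM for MYO5B(G519R), and 87.2 to 149 CPM with Compound-1. The 12 enterocyte markers summed to 4207 to 18637 CPM in control, with the lowest sum in control culture 1. The sums were 8502 to 15763 CPM in MYO5BΔIEC, 7165 to 11676 CPM for MYO5B(G519R), and 8160 to 10440 CPM with Compound-1. The 8 proliferation markers summed to 1777 to 2186 CPM in control, above the 1191 to 1586 of MYO5BΔIEC and the 840 to 1607 of the treated cultures, and the 1460 to 1862 of MYO5B(G519R) overlapped with control. Goblet cell markers (7 genes) summed to 1428 to 1745 CPM in control and to 1914 to 2380 CPM in MYO5BΔIEC, 1922 to 2342 CPM in MYO5B(G519R) and 1958 to 5935 with Compound-1. The single goblet genes were divided, with 3 fold changes above 0 and 4 below it in MYO5BΔIEC. In MYO5B(G519R) 4 were above 0 and 3 below it. Summed stem cell markers (6 genes) were 2323 to 6344 CPM in control, 903 to 2071 CPM in MYO5BΔIEC, 1273 to 2588 CPM in MYO5B(G519R) and 646 to 1806 with Compound-1. The single stem cell genes did not all follow their sum. In each model against control, 4 of the 6 had a fold change above 0 and 2 below it. Fibroblast markers stayed at or below 1.24 CPM in sum in every library, with Col3a1, Dcn and Lum at 0 counts. Immune markers (7 genes) summed to 3.86 to 5.54 CPM in control, 6.02 to 11.4 CPM in MYO5BΔIEC, 5.64 to 6.93 CPM in MYO5B(G519R) and 5.39 to 9.69 with Compound-1, with the macrophage marker Adgre1 at 0 counts in every library. Muscle and fat markers (7 genes) summed to 11.6 to 172 CPM in control, 12.4 to 91.9 CPM in MYO5BΔIEC, 22.6 to 59.8 CPM in MYO5B(G519R) and 16.8 to 120 with Compound-1. Nearly all of that sum was Acta1, skeletal muscle actin, at 11.4 to 172 CPM in control, while Ckm was at 0 counts in control and MYO5BΔIEC and Adipoq in every group but MYO5BΔIEC. In bulk RNA, fewer cells of a type and less RNA per cell cannot be told apart, and the part of these markers in the results below was not tested.

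By length, the most abundant members were genes of the main glycolytic trunk, though not all genes of the trunk were this high. Mean FPKM in control was 1078 ± 127 (SD, n = 4) for Ldha, 980.3 ± 84.5 for Pgk1, 635 ± 76.9 for Aldoa, 577 ± 93.2 for Tpi1, 496 ± 95.7 for Eno1 and 348 ± 34.8 for Pkm. The control ranges of Ldha and Pgk1 overlapped, as did those of Aldoa, Tpi1 and Eno1, while Pgk1 and Aldoa did not overlap. The fructolysis genes Tkfc and Khk followed with 289 ± 31.1 and 179.9 ± 83.2 FPKM. The control range of Khk overlapped with those of Pgam1 at 182 ± 29.7 FPKM and Fbp2 at 172 ± 54.9 FPKM, and that of Tkfc lay above all 3. Other genes of the trunk had lower means, with 155.5 ± 9.27 FPKM for Gpi1 and 47.4 ± 43.3 for Gapdh. Pfkl had 42.5 ± 6.32 and Hk2 8.55 ± 4.77 FPKM. Near the bottom were Ldhb at 0.496 ± 0.268 FPKM and Pck1, the cytosolic phosphoenolpyruvate carboxykinase, at 0.311 ± 0.216 FPKM. Eno2, the neuronal enolase, had 0 to 13 counts per library and was not tested against control. The second Aldoa row, ENSMUSG00000114515, had 21 to 75 counts per library and passed the threshold in no comparison, and Aldoa below means ENSMUSG00000030695.

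Hk1, Hk2 and Pfkm were higher in both models than in control, and Eno3, Fbp1 and G6pc were lower in both. Of the 5 gluconeogenic genes, 2 were lower in MYO5BΔIEC and 3 in MYO5B(G519R). In MYO5BΔIEC against control, 6 of 36 tested rows were higher and 3 lower with an adjusted p under 0.05 by edgeR, where 27.4% of all 17951 genes tested were called (13.5% higher, 13.8% lower). In MYO5B(G519R) against control, 6 were higher and 4 lower, against 26.8% of 17829 genes (13.1% higher, 13.7% lower). The shares of members called are thus near those of all genes. Without adjustment, 22 members had a p under 0.05 in MYO5BΔIEC, against 40.4% of all genes, and 16 in MYO5B(G519R), against 39.4%. Over the members the log2 fold change had a median of 0.22 in MYO5BΔIEC, where the median of all genes was -0.01, and 0.03 in MYO5B(G519R), where that of all genes was -0.05. The comparisons share their control cultures, so the second is not a repeat of the first. Control culture 1 weighed on these counts. Without it, 12 members were higher and 8 lower in MYO5BΔIEC, where 42% of all genes were called, and 12 were higher and 8 lower in MYO5B(G519R), where 46.2% were called.

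**Figure D1:**
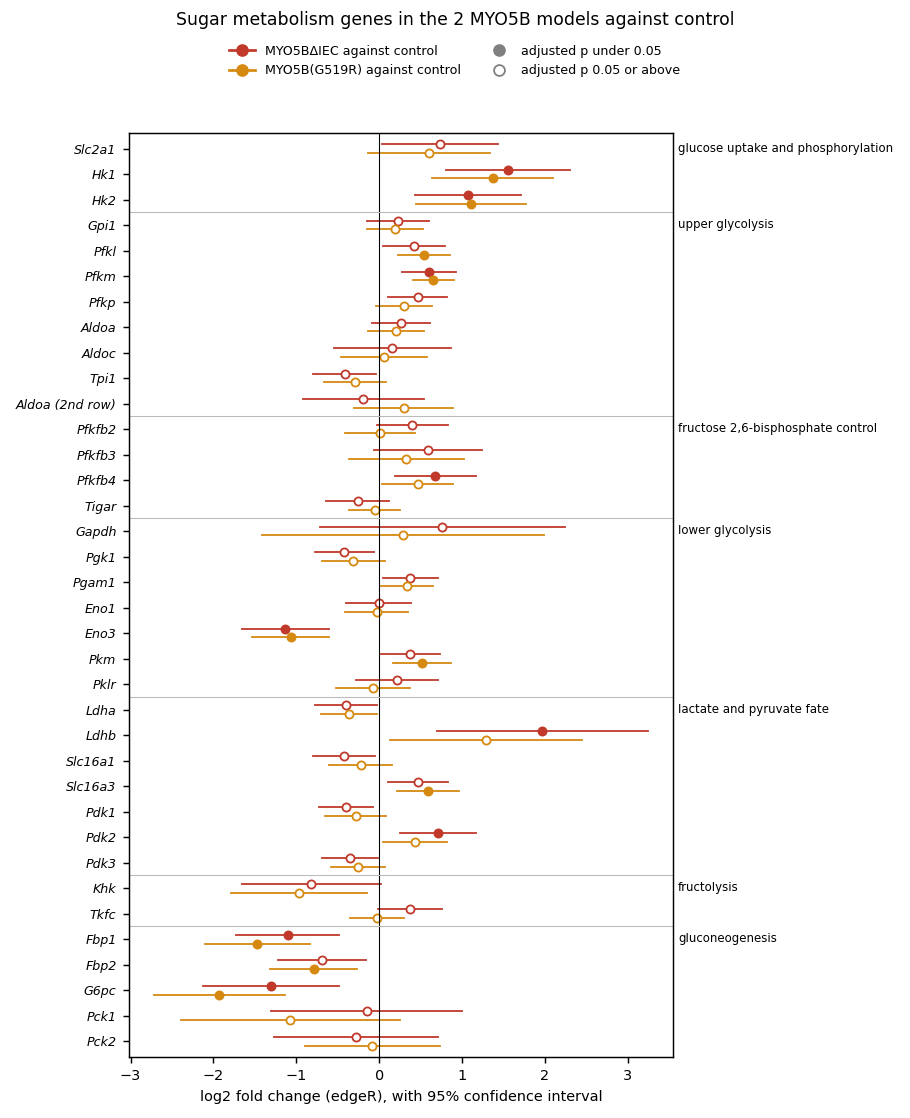
Log2 fold change of each member in MYO5BΔIEC (red) and MYO5B(G519R) (orange) against control, from edgeR, with its 95% confidence interval. Genes are grouped by role, and filled points passed an adjusted p of 0.05. The hexokinases lie to the right of 0 in both models, and all 5 gluconeogenic genes lie to the left, of which Fbp1 and G6pc are filled in both.

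Of the 3 genes of glucose uptake and phosphorylation, both hexokinases rose in both models. Hk2, the insulin- and hypoxia-responsive hexokinase, measured 94.1, 40.5, 41.6 and 32.2 CPM in the control cultures 1 to 4, 104, 119, 109 and 103 CPM in MYO5BΔIEC and 122, 113, 118 and 96.2 CPM in MYO5B(G519R). Every mutant culture was above every control culture, and control culture 1 was the closest. Hk2 rose by 1.07 ± 0.29 (SE, adjusted p by edgeR = 0.0208) in MYO5BΔIEC and 1.11 ± 0.30 (adjusted p by edgeR = 0.0225) in MYO5B(G519R) on the log2 scale. The rise was larger without control culture 1, at 1.52 and 1.59. In MYO5BΔIEC the call was lost without MYO5BΔIEC culture 2 or control culture 2, 3 or 4, with adjusted p values by edgeR up to 0.0652. In MYO5B(G519R) it was lost without MYO5B(G519R) culture 1, 2 or 3 or control culture 2, 3 or 4, up to 0.0683.

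Hk1, the housekeeping hexokinase, measured 58.3, 27.6, 30.0 and 21.3 CPM in control, 102, 125, 119.8 and 53.1 CPM in MYO5BΔIEC and 96.4, 97.9, 109 and 51.1 CPM in MYO5B(G519R). The groups overlapped through control culture 1 and culture 4 of each model. Hk1 rose by 1.55 ± 0.34 (SE, adjusted p by edgeR = 0.00795) in MYO5BΔIEC and 1.37 ± 0.33 (adjusted p by edgeR = 0.0136) in MYO5B(G519R) on the log2 scale. It stayed past the threshold whichever culture was left out and under every other alternative. Without control culture 1 the log2 fold changes were 1.93 and 1.78.

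Slc2a1, which encodes the basal glucose transporter GLUT1, did not pass the test in either model. It measured 189, 72.4, 75.5 and 58.2 CPM in control, 166, 161, 161 and 166 CPM in MYO5BΔIEC and 163, 153, 156 and 127 CPM in MYO5B(G519R). Control culture 1 was above all mutant cultures, and the other 3 controls were below all of them. Its log2 fold change was 0.73 ± 0.32 (adjusted p by edgeR = 0.109) and 0.60 ± 0.33 (adjusted p by edgeR = 0.205) with all controls. It passed in both once control culture 1 was left out, with 1.25 (adjusted p by edgeR = 4.34e-05) and 1.16 (adjusted p by edgeR = 8.69e-05).

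**Figure D2:**
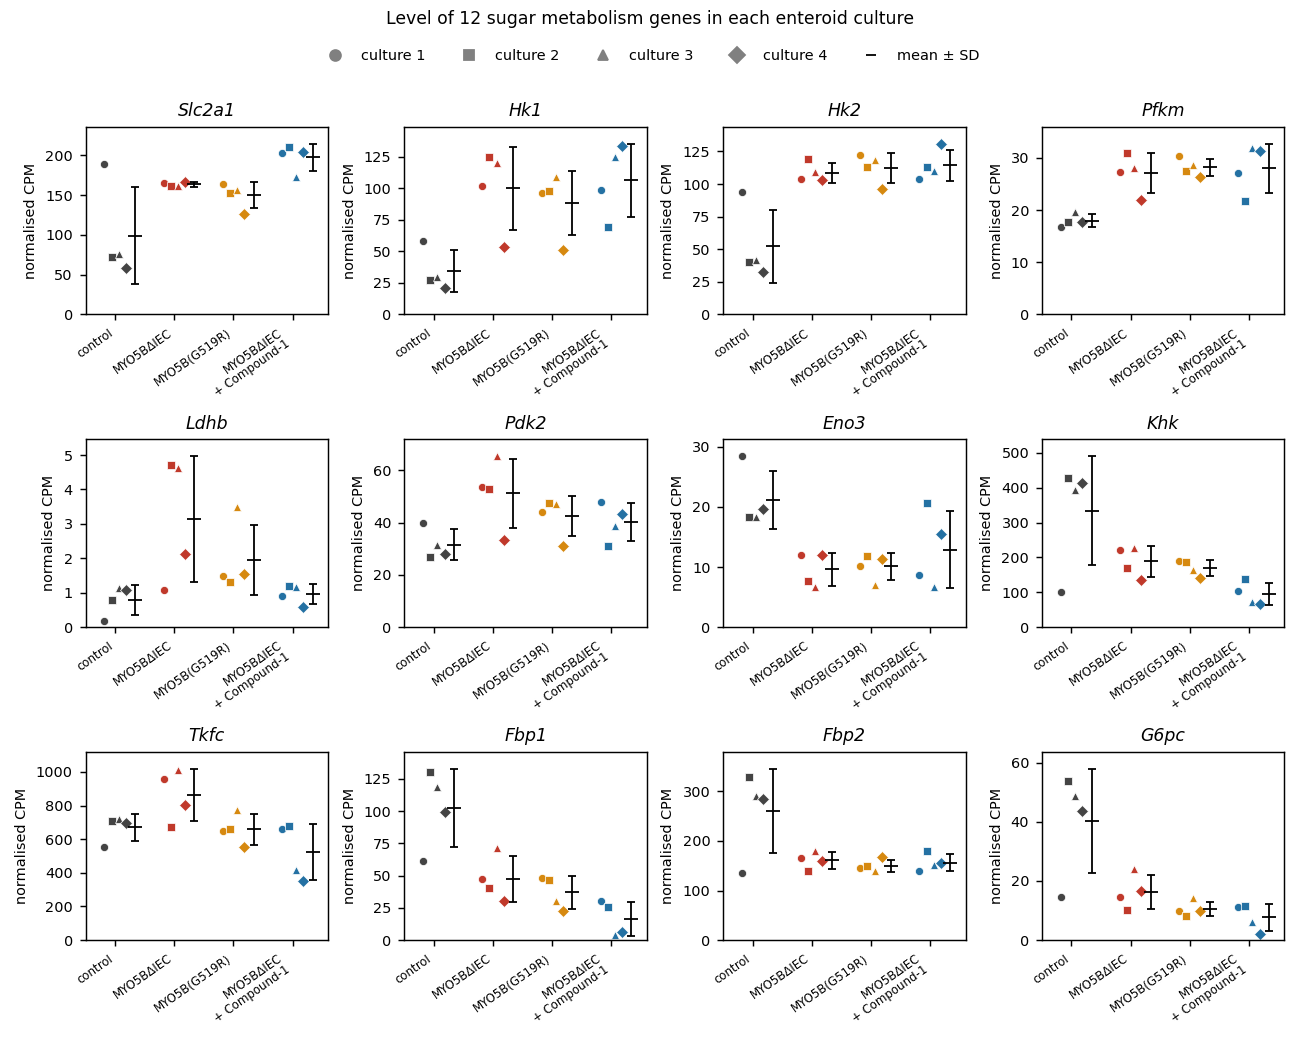
TMM-normalised CPM of 12 members in each of the 16 cultures (linear axes from 0). Marker shape gives the culture number within its group, and the bar is the mean ± SD of 4 cultures. Control culture 1 (circle) lies apart from the other controls in several panels, with 189 CPM of Slc2a1 and 101 CPM of Khk.

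In upper glycolysis, which carries glucose 6-phosphate to triose phosphates, the genes that passed were Pfkm in both models and Pfkl in MYO5B(G519R). Pfkm, the muscle-type subunit, measured 16.7, 17.6, 19.7 and 17.6 CPM in control, 27.4, 31, 28 and 22 CPM in MYO5BΔIEC and 30.3, 27.5, 28.6 and 26.4 CPM in MYO5B(G519R). The control and mutant groups did not overlap, and control culture 1 was not apart for this gene. Pfkm rose by 0.60 ± 0.15 (SE, adjusted p by edgeR = 0.0134) and 0.65 ± 0.11 (adjusted p by edgeR = 0.00369) on the log2 scale, and by 0.57 and 0.65 without control culture 1. These calls held in every alternative run on both models. Pfkl, the liver-type subunit, measured 339, 243, 302 and 280.5 CPM in control and 468, 459, 388 and 379 in MYO5B(G519R), with no overlap, and 455, 419, 364 and 312 in MYO5BΔIEC. It rose in MYO5B(G519R), by 0.54 ± 0.14 (adjusted p by edgeR = 0.0201), or 0.65 without control culture 1. That call was lost without MYO5B(G519R) culture 1 or 2 or control culture 2, 3 or 4 (adjusted p by edgeR up to 0.066). In MYO5BΔIEC its log2 fold change was 0.42 ± 0.17 (adjusted p by edgeR = 0.0874), and 0.50 (adjusted p by edgeR = 0.0236) without control culture 1. Pfkp, the platelet-type subunit, had 0.47 ± 0.16 (adjusted p by edgeR = 0.0524) in MYO5BΔIEC and 0.30 ± 0.15 (adjusted p by edgeR = 0.175) in MYO5B(G519R), and 0.56 (adjusted p by edgeR = 0.00779) and 0.42 (adjusted p by edgeR = 0.0217) without control culture 1.

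The other genes of this stretch did not pass in either model. Their fold changes in both models are in the plot of the models against control. Gpi1, which interconverts glucose and fructose 6-phosphate, ranged over 977 to 1115 CPM in control and 924 to 1409 in MYO5BΔIEC. The aldolase Aldoa ranged over 1725 to 2150.2 and 1989 to 2448 CPM and Aldoc over 53.6 to 97.9 and 37.8 to 119 CPM, overlapping between the groups. Tpi1, the triose phosphate isomerase, was 1252 to 1844 CPM in control and 1116 to 1290.1 in MYO5BΔIEC, with a log2 fold change of -0.41 ± 0.17 (adjusted p by edgeR = 0.0962). Without control culture 1 it was -0.52 (adjusted p by edgeR = 0.00605). In MYO5B(G519R) Tpi1 was 1176 to 1494 CPM, overlapping with control, and it did not pass with all controls. Without control culture 1 its log2 fold change there was -0.37 (adjusted p by edgeR = 0.0321).

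Fructose 2,6-bisphosphate is the signal that speeds up phosphofructokinase, and the PFKFB enzymes make and remove it. Pfkfb4 rose in MYO5BΔIEC, from 26.4 to 54.1 CPM in control to 51.3 to 80.3, by 0.68 ± 0.22 (SE, adjusted p by edgeR = 0.0437) on the log2 scale. The groups overlapped, the log2 fold change was 0.51 without control culture 1, and the call was lost without MYO5BΔIEC culture 1, 2 or 3 or control culture 3 or 4 (adjusted p by edgeR up to 0.118). In MYO5B(G519R) its log2 fold change was 0.46 ± 0.19 (adjusted p by edgeR = 0.104), and it passed without control culture 1 (adjusted p by edgeR = 0.0437) or 2 (adjusted p by edgeR = 0.048). Pfkfb3, the isozyme with the highest ratio of kinase to phosphatase activity, was at 119 CPM in control culture 1 and 45.5 to 56.0 in the other controls, against 74.3 to 127 in MYO5BΔIEC and 54.6 to 95.7 in MYO5B(G519R). With all controls its log2 fold change was 0.59 ± 0.30 (adjusted p by edgeR = 0.165) in MYO5BΔIEC, and without culture 1 it was 1.00 (adjusted p by edgeR = 0.000958). In MYO5B(G519R) the same values were 0.33 ± 0.31 (adjusted p by edgeR = 0.469) and 0.78 (adjusted p by edgeR = 0.00618). Pfkfb2 had log2 fold changes of 0.40 ± 0.19 and 0.01 ± 0.19 and Tigar, a bisphosphatase induced by p53, of -0.26 ± 0.17 and -0.05 ± 0.14 in the same order, and neither gene passed.

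Lower glycolysis, from glyceraldehyde 3-phosphate to pyruvate, held 1 gene that fell in both models. Eno3, the muscle enolase, measured 28.4, 18.4, 18.3 and 19.6 CPM in control, 12, 7.7, 6.72 and 12 CPM in MYO5BΔIEC and 10.2, 11.8, 6.99 and 11.4 CPM in MYO5B(G519R). Every mutant culture was below every control culture. Eno3 had log2 fold changes of -1.13 ± 0.24 (SE, adjusted p by edgeR = 0.0068) and -1.07 ± 0.21 (adjusted p by edgeR = 0.00622), and -0.96 and -0.86 without control culture 1. The calls held in every alternative run on both models. Pkm, the pyruvate kinase of most tissues, measured 1787, 1585, 2014 and 1764 CPM in control, 2390.3, 2569.9, 2243 and 2036 CPM in MYO5BΔIEC and 2944, 2801, 2396 and 2099.5 CPM in MYO5B(G519R), with no overlap between control and either model. It rose in MYO5B(G519R), by 0.52 ± 0.16 (adjusted p by edgeR = 0.036), or 0.55 without control culture 1. The call was lost without MYO5B(G519R) culture 1, 2 or 3 or control culture 2, 3 or 4 (adjusted p by edgeR up to 0.11), and in MYO5BΔIEC the log2 fold change was 0.38 ± 0.16 (adjusted p by edgeR = 0.103).

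Of the other lower glycolysis genes, Eno1, the common enolase, hardly differed, with log2 fold changes of -0.01 ± 0.18 and -0.03 ± 0.17. Pgk1, phosphoglycerate kinase, was 2079 to 2549.9 CPM in control and 1446 to 1821 in MYO5BΔIEC, with no overlap and a log2 fold change of -0.42 ± 0.16 that did not pass (adjusted p by edgeR = 0.0732). Without control culture 1 it was -0.46 (adjusted p by edgeR = 0.0184). In MYO5B(G519R) Pgk1 was 1400 to 2193 CPM, overlapping with control, and did not pass with all controls. Pgam1, phosphoglycerate mutase, went the other way, with 0.37 ± 0.15 (adjusted p by edgeR = 0.0867) and 0.34 ± 0.14 (adjusted p by edgeR = 0.101). Leaving out control culture 1 gave 0.48 (adjusted p by edgeR = 0.00749) and 0.48 (adjusted p by edgeR = 0.00457). Pklr, the liver and red cell pyruvate kinase, was 254 to 478 CPM in control and 379 to 572 in MYO5BΔIEC. In MYO5B(G519R) it was 323 to 430 CPM, and it passed in neither model. Gapdh, glyceraldehyde-3-phosphate dehydrogenase, spread widely within groups, with 38.6, 49.1, 323 and 399 CPM in control and 339, 461, 404 and 160.1 in MYO5BΔIEC. The low and high cultures did not follow the groups. Gapdh has many near-identical copies in the genome, and how shared reads were counted is not given in the sources used here, so its level and its log2 fold change of 0.76 ± 0.67 (adjusted p by edgeR = 0.435) are uncertain. Counting 3 called and 4 uncalled rows, 7 members had no overlap between MYO5BΔIEC and control, where this held for 26.9% of all genes. For MYO5B(G519R) it was 8 members, against 27.4% of all genes.

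Of the genes of lactate and pyruvate fate, Ldhb had the largest fold change in MYO5BΔIEC and the lowest FPKM. Ldhb encodes the heart-type subunit of lactate dehydrogenase, and the study picked it on these samples, so its direction is not independent evidence. It measured 0.188, 0.798, 1.15 and 1.07 CPM in control, 1.08, 4.7, 4.64 and 2.13 CPM in MYO5BΔIEC and 1.49, 1.3, 3.48 and 1.54 CPM in MYO5B(G519R). These levels rest on 6 to 36 counts in control and 36 to 157 in MYO5BΔIEC. Culture 1 of MYO5BΔIEC lay within the control range, and all MYO5B(G519R) cultures lay above it. The log2 fold change was 1.97 ± 0.58 (SE, adjusted p by edgeR = 0.0283) in MYO5BΔIEC and 1.29 ± 0.52 (adjusted p by edgeR = 0.0948) in MYO5B(G519R), or 1.64 and 0.99 without control culture 1. The MYO5BΔIEC call was lost without MYO5BΔIEC culture 2 or 3 or control culture 2 or 4 (adjusted p by edgeR up to 0.0881).

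Ldha, the muscle-type subunit and the dominant form here, ran the other way without passing. It measured 3016, 3851, 4091 and 3713 CPM in control, 2942, 2661, 2998 and 2483 CPM in MYO5BΔIEC and 3070.2, 3011, 2672 and 2634 CPM in MYO5B(G519R). Its log2 fold change was -0.40 ± 0.17 (adjusted p by edgeR = 0.102) and -0.37 ± 0.15 (adjusted p by edgeR = 0.1), and without control culture 1 -0.48 (adjusted p by edgeR = 0.0106) and -0.42 (adjusted p by edgeR = 0.0101). Slc16a3, the lactate exporter MCT4, rose in MYO5B(G519R), from 178 to 199.7 CPM in control to 192 to 330.1, by 0.59 ± 0.17 (adjusted p by edgeR = 0.0296), or 0.62 without control culture 1. The call was lost without MYO5B(G519R) culture 1, 2 or 3 or control culture 2, 3 or 4 (adjusted p by edgeR up to 0.0911). In MYO5BΔIEC the log2 fold change was 0.47 ± 0.16 (adjusted p by edgeR = 0.0555), and it passed without control culture 1 (adjusted p by edgeR = 0.0408) or MYO5BΔIEC culture 4 (adjusted p by edgeR = 0.0175). Slc16a1, the monocarboxylate transporter MCT1, was 204 to 336 CPM in control and 174 to 206 in MYO5BΔIEC, with -0.42 ± 0.17 (adjusted p by edgeR = 0.0862). In MYO5B(G519R) it was 182 to 240 CPM, overlapping with control, and it did not pass with all controls.

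The pyruvate dehydrogenase kinases keep pyruvate out of mitochondria by switching off pyruvate dehydrogenase. Pdk2 rose in MYO5BΔIEC, from 27 to 39.9 CPM in control to 33.3 to 65.4, by 0.71 ± 0.21 (SE, adjusted p by edgeR = 0.0292), or 0.84 without control culture 1. The call was lost without MYO5BΔIEC culture 1, 2 or 3 or control culture 2, 3 or 4 (adjusted p by edgeR up to 0.0852). In MYO5B(G519R) Pdk2 had 0.43 ± 0.17 (adjusted p by edgeR = 0.0926) and passed without control culture 1 (adjusted p by edgeR = 0.00828) or MYO5B(G519R) culture 4 (adjusted p by edgeR = 0.0308). Pdk1, the kinase known as a hypoxia target, had the opposite sign, -0.40 ± 0.15 in MYO5BΔIEC (adjusted p by edgeR = 0.0659), and its groups of 331 to 406 CPM in control and 226 to 312 did not overlap. Pdk3 had -0.35 ± 0.15 (adjusted p by edgeR = 0.113) and passed without MYO5BΔIEC culture 4 (adjusted p by edgeR = 0.0429). Neither Pdk1 nor Pdk3 passed in MYO5B(G519R) with all controls.

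Shares among isozymes, computed from FPKM in each culture, are described here without a test. Ldhb made up 0.0131 to 0.061% of the summed Ldha and Ldhb FPKM in control, against 0.0772 to 0.371% in MYO5BΔIEC and 0.0911 to 0.274% in MYO5B(G519R). Both models thus lay above control, though Ldha remained nearly all of the pair. Pdk1 made up 67.3 to 70.4% of the 3 kinases in control, and 58.1 to 59.5% and 58.9 to 66.7% in the models. Pdk2 made up 13.7 to 16.3% in control, and 21.1 to 30.0% and 19.7 to 27% in the models. The kinase shares did not overlap between control and either model. The share of Slc16a3 in the pair of lactate transporters was 31.1 to 42% in control, against 43.7 to 58.4% in MYO5BΔIEC and 43.7 to 54.5% in MYO5B(G519R), again without overlap. Eno3 made up 2.05 to 2.49% of the enolases in control, and 0.68 to 1.45% and 0.824 to 1.54% in the models. The shares of Hk1 in the hexokinases, of the 3 phosphofructokinase subunits and of Pklr in the pyruvate kinases overlapped between control and MYO5BΔIEC.

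**Figure D3:**
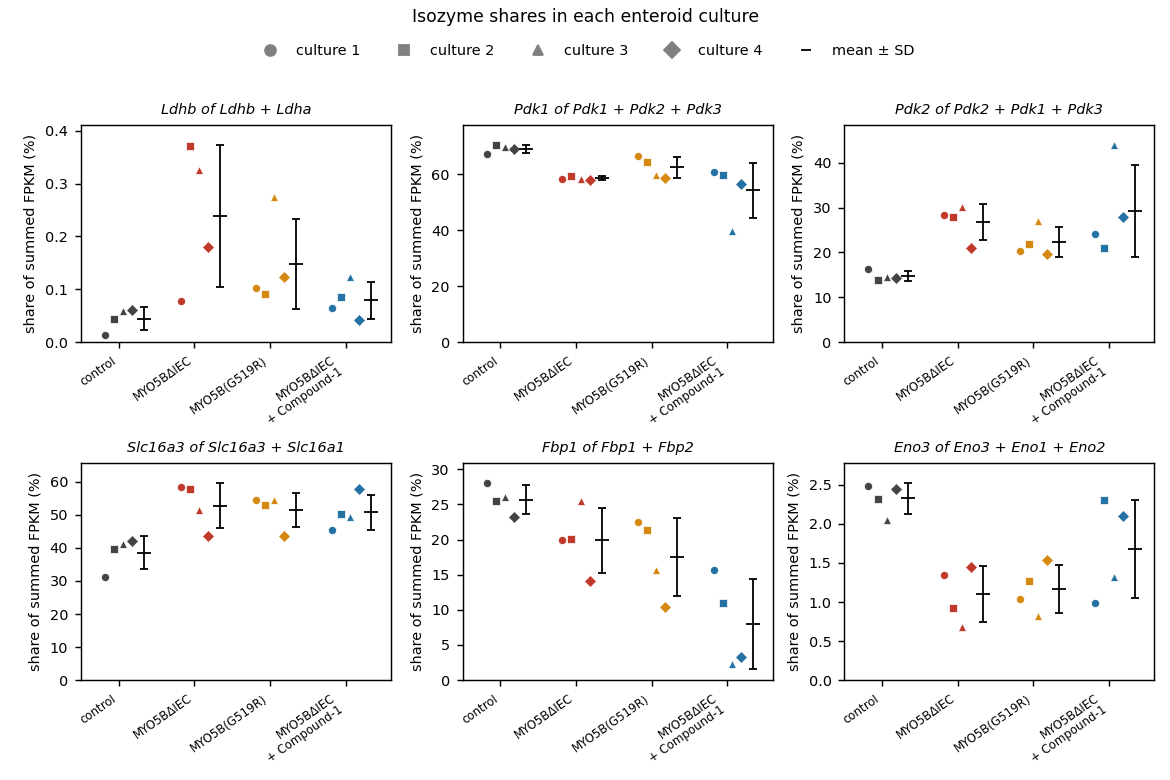
Share of 6 isozymes in the summed FPKM of their isozymes, in percent, per culture (linear axes from 0, bars are mean ± SD of 4 cultures). The shares of Ldhb, Pdk2 and Slc16a3 lie above control and those of Pdk1 and Eno3 below control in all cultures of both models.

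Of the called members, G6pc fell most in both models. G6pc, glucose-6-phosphatase, which releases free glucose, and Fbp1, fructose-1,6-bisphosphatase, were both picked by the study on these samples, so their fall is not independent evidence. G6pc measured 14.7, 53.8, 48.7 and 43.8 CPM in control, 14.4, 10.1, 24 and 16.6 CPM in MYO5BΔIEC and 9.82, 8.31, 14.1 and 9.98 CPM in MYO5B(G519R). All MYO5B(G519R) cultures were below all controls, while MYO5BΔIEC cultures 3 and 4 were above control culture 1. G6pc had log2 fold changes of -1.30 ± 0.37 (SE, adjusted p by edgeR = 0.0256) and -1.93 ± 0.35 (adjusted p by edgeR = 0.00492), or -1.58 and -2.18 without control culture 1. The MYO5BΔIEC call was lost without MYO5BΔIEC culture 1, 2 or 4 or control culture 2, 3 or 4 (adjusted p by edgeR up to 0.0777), and the MYO5B(G519R) call held in every alternative.

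Fbp1 measured 61.5, 130.1, 118 and 99.5 CPM in control, 47.7, 40.3, 71.4 and 30.2 CPM in MYO5BΔIEC and 48.5, 46.7, 30.2 and 22.6 CPM in MYO5B(G519R). The overlap with MYO5BΔIEC came from control culture 1 and MYO5BΔIEC culture 3. Fbp1 had log2 fold changes of -1.11 ± 0.28 (SE, adjusted p by edgeR = 0.0164) and -1.47 ± 0.29 (adjusted p by edgeR = 0.00621), or -1.29 and -1.61 without control culture 1. The MYO5BΔIEC call was lost without MYO5BΔIEC culture 2 (adjusted p by edgeR = 0.0564). Fbp2, the muscle-type bisphosphatase, was by length the more abundant of the pair in control. It measured 136, 329, 290.1 and 284 CPM in control, 166, 139, 180.0 and 159 CPM in MYO5BΔIEC and 144, 149, 139.9 and 167 CPM in MYO5B(G519R), and control culture 1 was below every mutant culture while the other controls were above all of them. It fell in MYO5B(G519R), with a log2 fold change of -0.79 ± 0.23 (adjusted p by edgeR = 0.0324), and had -0.69 ± 0.24 (adjusted p by edgeR = 0.0559) in MYO5BΔIEC. Without control culture 1 the values were -0.97 (adjusted p by edgeR = 6.02e-05) and -0.90 (adjusted p by edgeR = 0.000225), and the MYO5B(G519R) call was lost when any other culture was left out (adjusted p by edgeR up to 0.0897). Pck1 was at most 2.09 CPM, with -0.15 ± 0.52 in MYO5BΔIEC (adjusted p by edgeR = 0.86) and -1.07 ± 0.59 in MYO5B(G519R) (adjusted p by edgeR = 0.209), where it passed without control culture 1 (log2 fold change -1.36, adjusted p by edgeR = 0.0368). Pck2, its mitochondrial counterpart, spread over 112 to 321 CPM in control and 58.1 to 235 in MYO5BΔIEC and did not pass in either model.

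For fructolysis, control culture 1 decided the call. Khk, ketohexokinase, measured 101, 427, 394 and 412 CPM in control, 222, 169.6, 227 and 136 CPM in MYO5BΔIEC and 189, 188, 164 and 141 CPM in MYO5B(G519R). Control culture 1 was below every mutant culture, and the other controls were above all of them. The log2 fold change was -0.82 ± 0.38 (SE, adjusted p by edgeR = 0.132) and -0.97 ± 0.37 (adjusted p by edgeR = 0.0784), and without control culture 1 it was -1.12 (adjusted p by edgeR = 0.000506) and -1.24 (adjusted p by edgeR = 5.4e-05). The enterocyte marker sum was also lowest in that culture. Tkfc, the triokinase that follows in the pathway, measured 553, 711, 718 and 699 CPM in control, 957, 673, 1013 and 801 CPM in MYO5BΔIEC and 647, 658, 773 and 554 CPM in MYO5B(G519R), and did not pass (log2 fold changes 0.37 ± 0.18 and -0.03 ± 0.15).

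**Figure D4:**
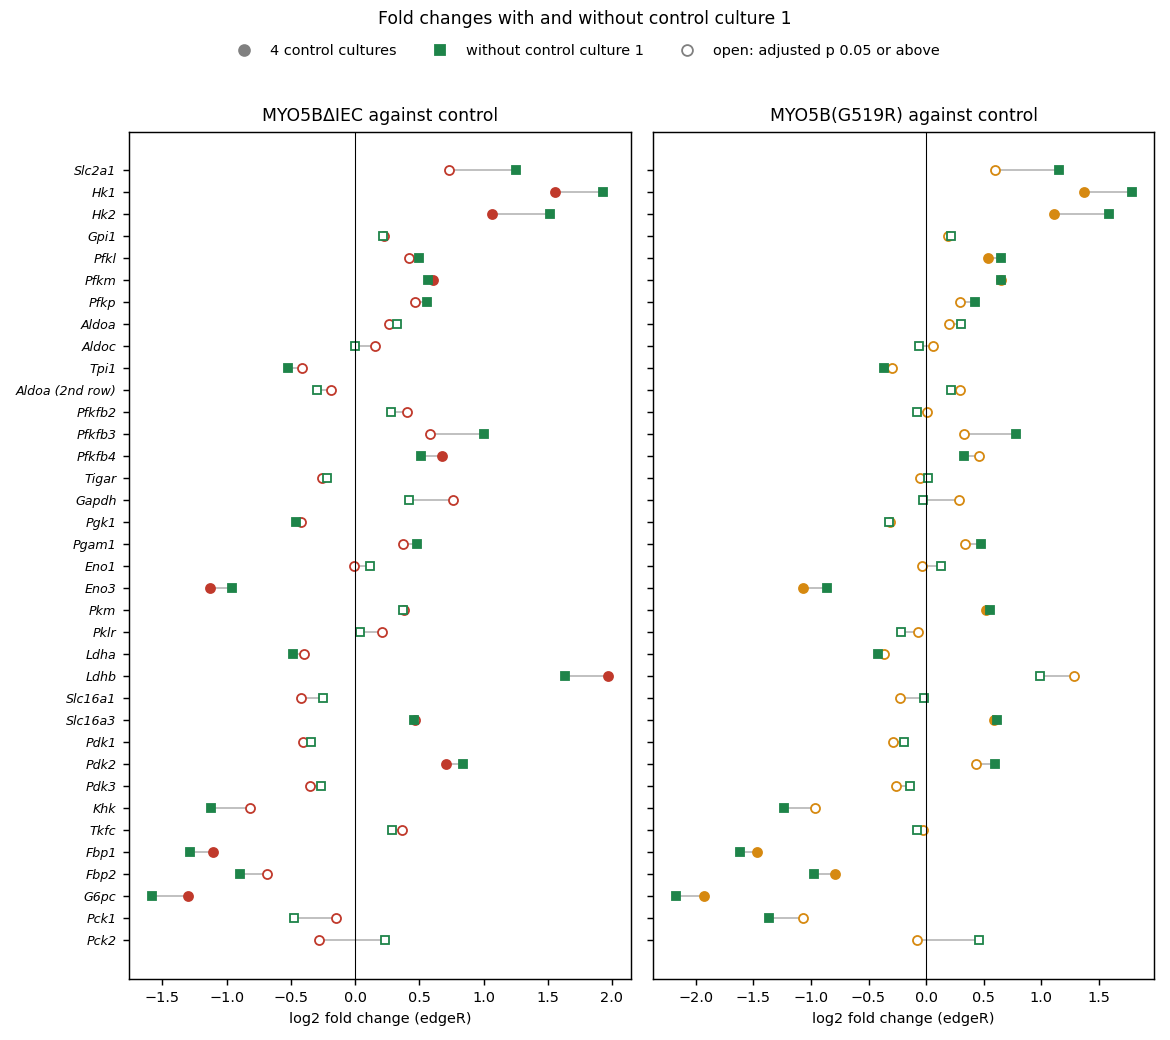
Log2 fold change of each member against control with all 4 control cultures (circles) and without control culture 1 (squares), for MYO5BΔIEC and MYO5B(G519R). Filled symbols passed an edgeR adjusted p of 0.05. Leaving out the culture moved Slc2a1 from 0.73 to 1.25 and Khk from -0.82 to -1.12 in MYO5BΔIEC.

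Compared directly, MYO5B(G519R) and MYO5BΔIEC enteroids differed in no member by edgeR, where 1 of 17943 genes (0.00557%) was called, nor by DESeq2, which called 0 members. At an unadjusted p under 0.05 there were 2 members, against 4.3% of all genes. They were Tkfc, with a log2 fold change of -0.39 ± 0.15 (95% interval -0.72 to -0.05, unadjusted p by edgeR = 0.0285, adjusted p = 0.838), and G6pc, with -0.62 ± 0.25 (95% interval -1.16 to -0.07, unadjusted p by edgeR = 0.0298, adjusted p = 0.838). No member had groups that did not overlap (0 members, against 1.85% of all genes). For Hk1 the interval was -0.79 to 0.43, for Hk2 -0.19 to 0.28 and for Ldhb -1.72 to 0.36, so differences within these bounds are not excluded.

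Compound-1 changed no member past the threshold by edgeR. Of 37 rows tested against vehicle-treated MYO5BΔIEC, 0 were called, and 0% of all 18037 genes were. At an unadjusted p under 0.05 there were 6, Aldoc, Ldhb, Khk, Tkfc, Fbp1 and G6pc, all with a negative fold change, against 7.51% of all genes. By the DESeq2 Wald test, 2 members were lower, Ldhb and Khk, where 0.566% of all genes were called. These 2 calls rest on DESeq2 alone. In data simulated on MYO5BΔIEC against control, DESeq2 without the filter on low counts made 130 true and 46 false calls. There edgeR made 89 true and 4 false calls. Compound-1 against vehicle was not simulated. The median log2 fold change of the members was -0.19, and that of all genes was 0.00. Without treated culture 3, the library in which the members took the lowest share of counts (1.29%), the members' median was -0.08. Of the 37 rows, 29 were below 0 and 8 above.

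Ldhb measured 0.905, 1.19, 1.18 and 0.599 CPM with Compound-1, near the 0.188, 0.798, 1.15 and 1.07 of control and at or below most of the 1.08, 4.7, 4.64 and 2.13 of vehicle. Culture 1 of the vehicle group, at 1.08 CPM, lay within the treated range. The log2 fold change was -1.73 ± 0.47 (95% interval -2.75 to -0.70, adjusted p by edgeR = 0.532), and DESeq2 gave an adjusted p of 0.0377. Its direction was known from the study's own selection of this gene. Against control, the treated cultures had 0.27 ± 0.51 (adjusted p by edgeR = 0.723).

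The fructolysis genes and a pair of gluconeogenic genes had negative fold changes against vehicle with intervals below 0, though none passed the edgeR test after adjustment. Khk measured 104, 138, 71.4 and 68 CPM with Compound-1 against 222, 169.6, 227 and 136 with vehicle, with an overlap between treated culture 2 and vehicle culture 4. Against vehicle the log2 fold change was -1.01 ± 0.25 (95% interval -1.56 to -0.47, adjusted p by edgeR = 0.532, DESeq2 adjusted p = 0.0313). Fbp1 measured 30.0, 25.4, 4.15 and 6.02 CPM, all below the vehicle cultures, with -1.56 ± 0.55 (95% interval -2.78 to -0.35, adjusted p by edgeR = 0.562). Treated cultures 3 and 4 were far below cultures 1 and 2. G6pc measured 11.2, 11.4, 6.18 and 1.94 CPM, with -1.11 ± 0.46 (95% interval -2.11 to -0.11, adjusted p by edgeR = 0.622), and Tkfc 658, 677, 418 and 349 CPM, with -0.74 ± 0.23 (95% interval -1.25 to -0.23, adjusted p by edgeR = 0.55). Without treated culture 3 the Fbp1 value was -1.24 and without treated culture 4 it was -1.28. In these libraries the enterocyte marker sum was 8160 to 10440 CPM with Compound-1 and 8502 to 15763 with vehicle, and 10 of the 12 markers had a negative fold change without passing.

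The 3 members that were higher in both models, Hk1, Hk2 and Pfkm, did not pass against vehicle, and their intervals include 0. Hk1 was 98.6, 69.3, 124 and 134 CPM with Compound-1 and had a log2 fold change of 0.05 ± 0.27 against vehicle (95% interval -0.54 to 0.64). Hk2 was 104, 113, 109.7 and 131 CPM, with 0.04 ± 0.12 (95% interval -0.23 to 0.31). Pfkm was 27.1, 21.8, 31.9 and 31.4 CPM, with 0.01 ± 0.17 (95% interval -0.35 to 0.38). Slc2a1 was 203, 211, 173 and 204 CPM, all above the vehicle cultures, with 0.24 ± 0.12 (95% interval -0.02 to 0.51, adjusted p by edgeR = 0.693). Of the 2 members with no overlap between treated and vehicle cultures, Slc2a1 and Fbp1, neither passed, and 2.86% of all genes had no overlap. Eno3 was 8.64, 20.6, 6.65 and 15.5 CPM, with treated cultures 2 and 4 above every vehicle culture and a log2 fold change of 0.39 ± 0.35 (95% interval -0.37 to 1.15).

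**Figure D5:**
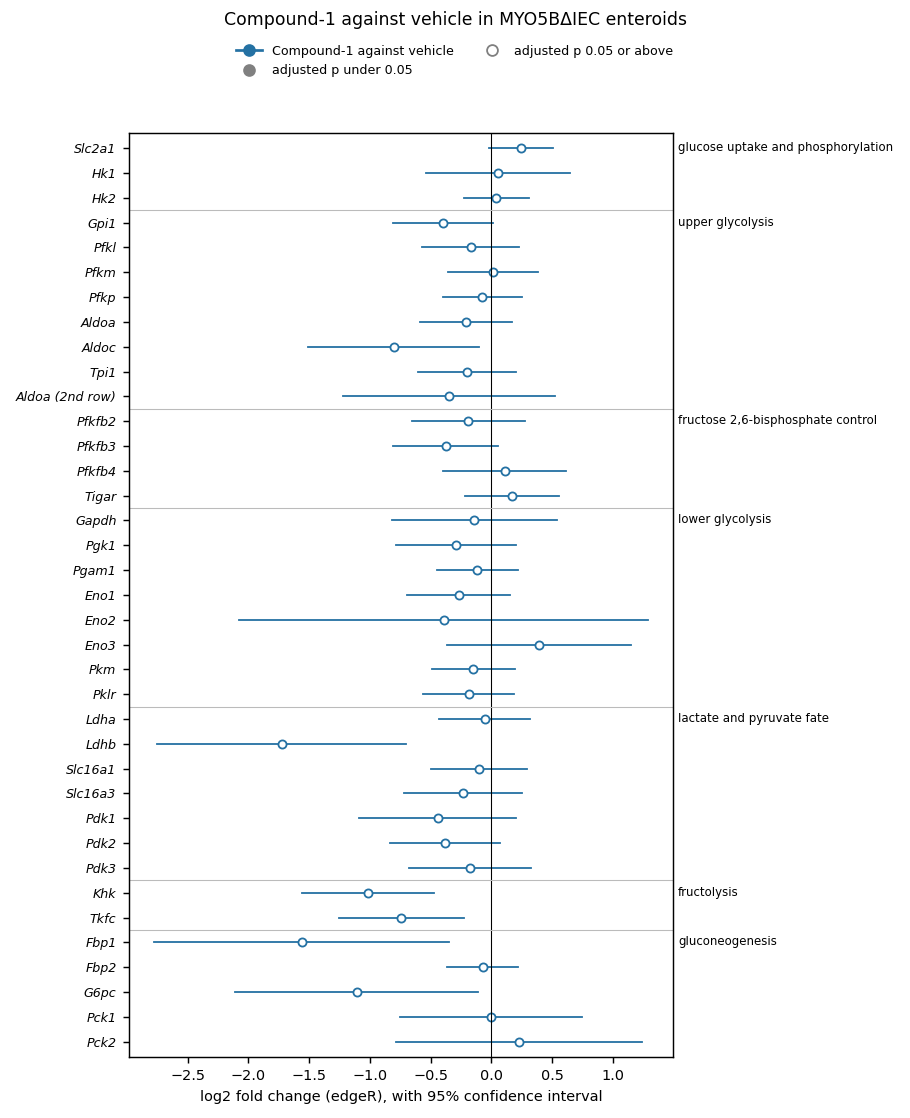
Log2 fold change of each member in Compound-1-treated against vehicle-treated MYO5BΔIEC enteroids, from edgeR, with its 95% confidence interval, grouped by role. All points are open, since none passed an adjusted p of 0.05. The intervals of Ldhb, Khk, Tkfc, Fbp1, G6pc and Aldoc lie below 0.

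Treated MYO5BΔIEC cultures against control gave 5 members higher and 5 lower, where 29.4% of 17937 genes were called (15.7% higher, 13.7% lower). The same controls were used as above. Slc2a1 (1.00 ± 0.33, adjusted p by edgeR = 0.0429), Hk1 (1.64 ± 0.32, 0.00628), Hk2 (1.13 ± 0.30, 0.0186), Pfkm (0.65 ± 0.16, 0.015) and Pfkfb4 (0.81 ± 0.27, 0.0452) were higher. Fbp1 (-2.65 ± 0.58, adjusted p by edgeR = 0.00934), G6pc (-2.39 ± 0.53, 0.00984), Khk (-1.81 ± 0.41, 0.0107), Fbp2 (-0.73 ± 0.24, 0.0446) and Pgk1 (-0.69 ± 0.23, 0.0481) were lower. In both sentences the first value is the log2 fold change with its SE and the second is the edgeR adjusted p. In all, 9 members had no overlap between the groups, against 27.9% of all genes. Hk1, Khk, Fbp1 and G6pc stayed past the threshold whichever culture was left out, and the other calls were lost in at least 1 case. Pfkm lost it without treated culture 4 (adjusted p by edgeR = 0.0541), and Hk2 without that culture or control culture 2, 3 or 4 (up to 0.0603). Slc2a1 and Fbp2 lost it when any culture but control culture 1 was left out (adjusted p by edgeR up to 0.116 and 0.124). Pfkfb4 lost it without treated culture 1, 3 or 4 or control culture 1, 3 or 4 (adjusted p by edgeR up to 0.131), and Pgk1 without treated culture 1, 3 or 4 or control culture 2, 3 or 4 (up to 0.125). Eno3 had -0.72 ± 0.33 (adjusted p by edgeR = 0.124) and passed without treated culture 2 (adjusted p by edgeR = 0.0314). Without control culture 1, 7 members were higher and 8 lower, where 42.1% of all genes were called, and Slc2a1 had 1.55 and Khk -2.08.

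Genes next to these pathways were counted in the same fits, which called 27.4% of all genes in MYO5BΔIEC and 26.8% in MYO5B(G519R). Of 27 tested other isozymes and sugar entry genes, 2 were higher and 3 lower in MYO5BΔIEC, and 2 were higher and 5 lower in MYO5B(G519R). Ldhd, a lactate dehydrogenase that uses the D form, rose from 11.1 ± 2.95 (SD, n = 4) to 24.3 ± 4.9 CPM, and Mpc2, a subunit of the mitochondrial pyruvate carrier, fell from 98.5 ± 21.2 to 47.8 ± 3.88 CPM. Slc37a4, the transporter that feeds glucose 6-phosphate to G6pc, fell from 118 ± 11.5 to 82.9 ± 11.5 CPM. The edgeR adjusted p values were 0.00477, 0.00267 and 0.0221. Slc2a5, the fructose transporter GLUT5, had log2 fold changes of -0.65 ± 0.35 (adjusted p by edgeR = 0.192) and -1.07 ± 0.34 (adjusted p by edgeR = 0.0439). Slc2a2, the basolateral transporter GLUT2, had -0.08 ± 0.30 (adjusted p by edgeR = 0.868) and -0.81 ± 0.29 (adjusted p by edgeR = 0.0616).

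Of all genes in these lists, the largest fold change in both models was that of Pcx, pyruvate carboxylase, the enzyme that makes oxaloacetate for gluconeogenesis and the citric acid cycle. It rose from 13.8 ± 3.34 CPM in control to 67.3 ± 22.4 in MYO5BΔIEC and 61.2 ± 25.9 in MYO5B(G519R), a log2 fold change of 2.29 ± 0.28 (SE, adjusted p by edgeR = 0.00142) and 2.15 ± 0.32 (adjusted p by edgeR = 0.00246), opposite in sign to Fbp1 and G6pc. Of the 18 genes of NADH shuttles and pyruvate entry, 2 were higher and 6 lower in MYO5BΔIEC, and 1 was higher and 5 lower in MYO5B(G519R). Me2, the mitochondrial malic enzyme (-0.85 ± 0.15, adjusted p by edgeR = 0.00338), and Dld, the shared dehydrogenase subunit of pyruvate dehydrogenase (-0.71 ± 0.15, adjusted p by edgeR = 0.0068), were among those lower.

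Of 12 pentose phosphate genes, 1 was higher and 2 lower in MYO5BΔIEC. They were Rpia (-0.76 ± 0.14, adjusted p by edgeR = 0.00424) and Prps1 (-0.64 ± 0.17, adjusted p by edgeR = 0.0176) below control, and H6pd (0.74 ± 0.13, adjusted p by edgeR = 0.00341), the enzyme that draws on glucose 6-phosphate inside the endoplasmic reticulum, above it. In MYO5B(G519R) 2 were higher and 2 lower. Of 17 tested glycogen genes, 1 was higher and 1 lower in MYO5BΔIEC, and the lower gene was Pygl, the liver phosphorylase (-0.81 ± 0.26, adjusted p by edgeR = 0.0411). In MYO5B(G519R) 2 of 16 were higher and 1 lower. Of 20 regulators of sugar genes, 5 were higher and 1 lower in MYO5BΔIEC, and 6 were higher and 1 lower in MYO5B(G519R). Over all genes the shares called were 27.4% and 26.8% in the same order. Epas1, which encodes the hypoxia-inducible factor 2α, rose by 1.31 ± 0.25 (SE, adjusted p by edgeR = 0.00445) and 1.18 ± 0.19 (adjusted p by edgeR = 0.00337). Crebbp and Mlxip rose as well, by 0.77 ± 0.16 (adjusted p by edgeR = 0.00646) and 0.64 ± 0.16 (adjusted p by edgeR = 0.0136) in MYO5BΔIEC. Compound-1 against vehicle gave 0 calls by edgeR in each of these lists.

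The counts of these lists were repeated without control culture 1 after the data were seen, where 42% of all genes were called in MYO5BΔIEC and 46.2% in MYO5B(G519R), against 27.4% and 26.8% with it. In MYO5BΔIEC the counts were then 2 higher and 7 lower for other isozymes and sugar entry, 2 higher and 6 lower for the pentose phosphate pathway, 4 higher and 1 lower for glycogen, 5 higher and 7 lower for NADH shuttles and pyruvate entry, and 9 higher and 1 lower for regulators. In MYO5B(G519R) they were 3 and 9, 2 and 5, 6 and 2, 4 and 6, and 9 and 2 in the same order. On the log2 scale Pcx was then higher by 2.22 and 2.10 in the same order of models, and Epas1 by 1.28 and 1.18. Slc2a5 passed in both models without that culture, with -0.93 (adjusted p by edgeR = 0.0028) and -1.32 (adjusted p by edgeR = 0.000136). Slc2a2 had -0.26 (adjusted p by edgeR = 0.46) and -0.95 (adjusted p by edgeR = 0.00779). Proliferation markers were lower for 5 of 8 genes in MYO5BΔIEC and 4 of 8 in MYO5B(G519R), both with and without control culture 1. Without that culture, 1 of the 8 was higher in MYO5B(G519R). Paneth cell markers were lower for 2 of 6 genes in each model with all controls. Without control culture 1 they were lower for 5 of 6 in MYO5BΔIEC and 6 of 6 in MYO5B(G519R).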

How the data were processed

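RNA from 16 enteroid cultures, in 4 groups of 4, was sequenced as paired-end poly-A libraries. The authors aligned reads with STAR v2.5 to GRCm38/mm10 and deposited gene counts from HTSeq v0.6.1. The authors also deposited FPKM, computed from those counts and gene length. Handling of reads that map to several genes and of strand is not given in the sources used here.

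Groups came from the labels. Deposited counts with at least 10 in at least 2 libraries of a comparison were tested with the quasi-likelihood test of edgeR 4.0.16 (R 4.3.3) after TMM normalisation, each comparison on its own 8 libraries, adjusted by Benjamini-Hochberg over all genes at 0.05. Intervals are 95%. The study gives 4 cultures from 4 mice a group, and p-values measure the spread between cultures. Members and lists were chosen with earlier results of these data known. Per-culture values are given for members called without overlap, for Fbp1, G6pc and Ldhb, and, chosen after their values were seen, for Hk1, Slc2a1, Khk, Tkfc, Fbp2, Pfkl, Pkm, Ldha and Gapdh. At most 3 genes of each neighbouring list are named, the largest changes called without overlap in MYO5BΔIEC, with Slc2a2 and Slc2a5 in any case, and some genes of these lists are not reported here. Alternatives were DESeq2 1.42.0 (test, and size factors in edgeR), other filters, all groups in 1 fit, a replicate block, removal of the gene length trend, limma 3.58.1 on log2(FPKM + 1) or log2(FPKM + 0.1) and leaving out each culture. Scripts were tested on simulated data, modelled on MYO5BΔIEC against control with 200 changed genes. There edgeR made 89 true and 4 false calls, and DESeq2, run without the filter on low counts, made 130 true and 46 false calls. The precision of low genes is limited by depth, and the zero limits cover counting error only.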

Additional observations from a re-analysis of the deposited data

Results flagged for a closer look

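Single cultures far from the other 3 of their group were found in 14 of the 148 groups of member values, where chance flags about 1 in 20 groups. Control culture 1 accounts for 8 of them. It was high for Slc2a1 (189 CPM), Hk2 (94.1 CPM), Pfkfb3 (119 CPM), Eno3 (28.4 CPM) and Pck2 (321 CPM), and low for Pklr (254 CPM), Khk (101 CPM) and Tkfc (553 CPM). In MYO5B(G519R), culture 4 was low for Pfkfb3 (54.6 CPM), and culture 3 was high for Ldhb (3.48 CPM) and low for Pck2 (90 CPM). In MYO5BΔIEC, culture 4 was high for Pdk3 (26.7 CPM). With Compound-1, culture 3 was low for Pfkp (399 CPM) and Ldha (2000 CPM).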

How the results depend on the processing

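Of 29 calls of a member in a comparison, 12 held whichever culture was left out, and 16 held under every other alternative. Among 3438 alternative values of members, 127 lost and 71 gained a call, and 0 changed sign across a call. Leaving out 1 culture gave 2 to 12 members higher and 1 to 8 lower in MYO5BΔIEC against control, 2 to 12 higher and 3 to 8 lower in MYO5B(G519R), and 1 to 7 higher and 3 to 8 lower with Compound-1 against control, with the highest counts without control culture 1. Of all genes, these fits called 16.7% to 42%, 16.3% to 46.2% and 16.7% to 42.1%, again highest without that culture. Without any filter, limma on log2(FPKM + 1) gave 3 higher and 1 lower in MYO5BΔIEC, and 3 higher and 2 lower with Compound-1 against control, where 11.5% and 11.3% of all genes were called. With the filter, limma gave 3 lower in the latter comparison at either pseudocount, where 31.9% and 32.1% of all genes were called. The fit of all 4 groups gave 9 lower there, where 38.6% of all genes were called. In MYO5BΔIEC, DESeq2 gave 6 lower and removal of the gene length trend 5 lower, where 31.7% and 27.4% of all genes were called. DESeq2 gave 2 lower with Compound-1 against vehicle, where 0.566% of all genes were called. The cause of these differences was not tested.

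The replicate numbers were not taken to pair the cultures, since in no comparison did every pair of same-numbered cultures correlate above 0.1. The sources used here do not say whether cultures of different groups came from the same mice. These correlations cannot settle that. Correlations of same-numbered cultures' deviations ranged from -0.207 to 0.0880 between MYO5BΔIEC and control, and 1 of 4 or fewer passed 0.1 except between the models (3 of 4, 0.0723 to 0.571). With a replicate block, MYO5BΔIEC against control had 5 members higher and 3 lower, where 20.3% of all genes were called. For MYO5B(G519R) the block left 4 higher and 3 lower, beside 20.7% of all genes. Treated cultures against control kept 4 higher and 4 lower, beside 24.5% of all genes, and the other comparisons had 0 members. Between the models the block took the members at an unadjusted p under 0.05 from 2 to 7. The share of all genes under that p is not given for the block fit. Whether this rise is particular to the members was not tested.

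Ldhb, Pck1 and Eno2 rest on few counts, which limits the precision of their levels. The precision of a fold change also depends on the spread between cultures, which was wide for Gapdh at far higher counts.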
